A study of Solanum lycopersicum with 6 samples.

Results

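Buds of the rSBP15 line were set directly against buds of the 156OE line, 2 samples of each, which make up 4 of the 6 samples of the series. The samples were chosen by their labels alone. The material was dormant axillary buds of tomato plants, taken 25 days after germination; such buds sit at the base of leaves and can grow out into branches. All plants were of the cultivar labelled MT. The rSBP15 plants, whose sample titles read rSBP15OE, are known from the study to carry a form of the gene SBP15 that miR156 cannot target. The 156OE plants are known as overexpressors of the microRNA miR156. The remaining 2 samples were the wild type of the same cultivar (MT), which serves both lines as the common reference. About 20 buds, from 4 to 5 plants, were pooled for each sample. The labels give neither the promoter that drives each transgene nor the number of independent lines. In pooled buds, fewer cells of a type and less RNA per cell cannot be told apart.

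MicroRNAs of the miR156 family bind the transcripts of many SBP-box genes, a plant family of transcription factors, and lower their output. High miR156 is known to hold plants in a juvenile phase with many side shoots, and SBP-box proteins are known to restrain branching and to promote the change to the adult phase. The question of the comparison is which transcripts moved in opposite directions from MT in the 2 lines, and how far apart the lines stood.

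The deposited measurements are a log fold change over MT and a p-value for each of 34075 gene IDs in each line. Its logarithmic base is not stated, and all sizes are in the log units of the authors' deposited tables. Values of single libraries, sequencing depth and expression levels are unknown here. The files do not pair gene IDs with names, and 0 IDs were found in the supplied RefSeq gene table, so genes are given by ID, without roles. For the same reason, neither the transgene's transcript nor markers of bud tissue could be checked by name. A difference between the lines is the log fold change of rSBP15 minus that of 156OE, and a positive difference means a higher level in rSBP15 buds. Of the 34075 IDs, 8418 (24.7%) stood at 0 in both tables, which left 25657 for testing.

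In the limma fit of all 6 libraries the lines differed from each other at many genes. In most of the called genes the rSBP15 value was the one farther from MT. That fit used variances recovered from the deposited p-values, with each gene's residual variance at its upper bound. The bound takes the MT replicates as equal, while the test still counts 3 residual degrees of freedom. In that fit 3702 of the 25657 genes (14.4%) had a Benjamini-Hochberg adjusted p under 0.05. Of these, 1896 (7.39% of the tested genes) were higher and 1806 (7.04%) were lower in rSBP15 than in 156OE. The rSBP15 value lay farther from MT than the 156OE value in 3046 of the called genes (82.3%), against 66.5% of all tested genes. In called genes the deposited log fold changes had a median size of 0.366 in rSBP15 and 0.11 in 156OE. Genes were called on the difference itself, a choice that favours the line with the larger changes. Nothing is therefore read from the rise of the share over 66.5% or from these medians. The median size of the difference was 0.478 in called genes and 0.114 in all tested genes.

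Called genes that were lower in rSBP15 had a larger median difference than those that were higher, a contrast that was not tested. The median difference was 0.40 in the called genes that were higher in rSBP15 and -0.55 in those that were lower. In 561 called genes the difference had a size of 1 or more, with 230 higher and 331 lower in rSBP15. At a size of at least 2 the order was the other way round, with 23 higher and 11 lower. At an adjusted p under 0.01, 360 genes were called, 110 higher and 250 lower in rSBP15.

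The number of calls depended on which libraries and which variance entered the fit. When the 4 libraries of the lines were taken alone, with the variance at its upper bound, limma called 0 genes at an adjusted p of 0.05. The lowest adjusted p was 0.0991, and 5569 genes were under 0.05 before adjustment. With the same 4 libraries at the mean recovered variance, limma called 1994 genes. The values given for single genes with the 4 libraries alone are those at the upper bound. The tables also show that the lines did not vary alike: the replicate libraries of 156OE lay farther apart than those of rSBP15 in 65.4% of the 24190 genes that could be compared, and in 55.9% of the called ones.

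Among the genes named by rule for the size of the difference, the lines stood farthest apart in Solyc03g006360.3. In the authors' deposited tables its log fold change over MT was 2.60 in rSBP15 and -1.41 in 156OE, with recovered standard errors of 0.409 and 0.302 in the tables of those lines. The difference was 4.01, with a moderated standard error of 0.368 and adjusted p = 0.0155 in the limma fit of 6 libraries (0.105 with the 4 libraries alone). MT lay between the lines, and the libraries of the 3 genotypes cannot overlap. For Solyc02g084850.3 the deposited log fold changes were 3.31 in rSBP15 and -0.11 in 156OE. Its difference of 3.42 had a moderated standard error of 0.642 and adjusted p = 0.0484 (0.163 with the 4 libraries alone). Here the distance came from rSBP15, and the libraries of 156OE and MT may overlap.

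In the other direction, Solyc08g078940.1 had the difference of largest size among called genes. In the authors' deposited tables it was at -2.97 in rSBP15 and 0.85 in 156OE, with recovered standard errors of 0.0598 and 0.116. The difference was -3.82, with a moderated standard error of 0.0950 and adjusted p = 0.00520 (0.0991 with the 4 libraries alone). It was followed by Solyc01g107370.3, at -1.30 in rSBP15 and 1.38 in 156OE, with standard errors of 0.376 and 0.397. Its difference of -2.68 had an adjusted p of 0.0320 (0.133 with the 4 libraries alone). In both genes the MT libraries lay between those of the lines.

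**Figure D1:**
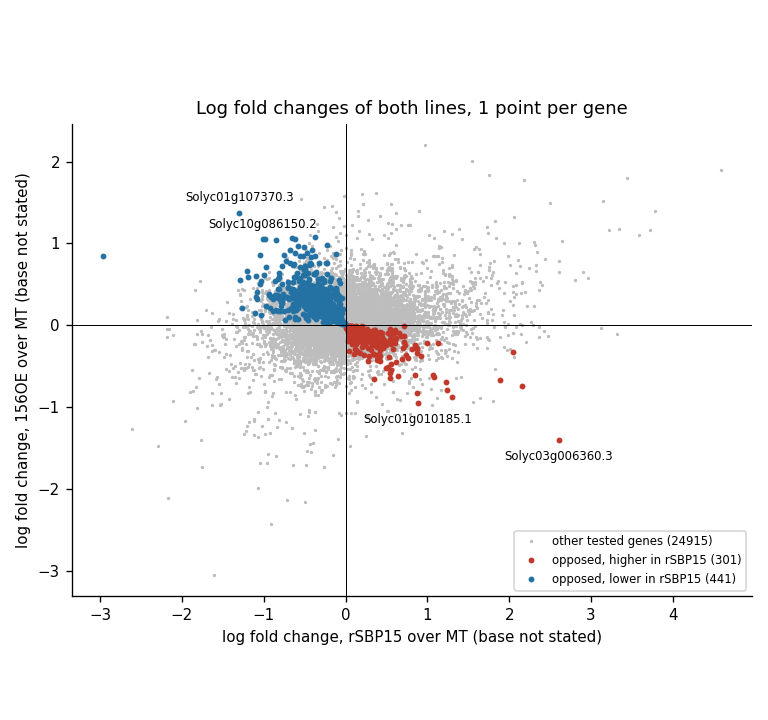
Deposited log fold change over MT in rSBP15 (horizontal axis) and in 156OE (vertical axis), in log units of unstated base, with 1 point for each of the 25657 tested genes. The 301 red points rose in rSBP15 and fell in 156OE, the 441 blue points did the reverse, and both axes share the MT libraries.

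A gene is called opposed here when its deposited p-value was under 0.05 in both tables and the signs differed. This held for 742 genes (2.89% of those tested). In 301 of them (1.17%) the transcript was higher in rSBP15 and lower in 156OE, and in 441 (1.72%) it was lower in rSBP15 and higher in 156OE. The p-values are unadjusted and both tables use the same MT libraries, so the count is a description. It is set against backgrounds of 33.3% of genes with a deposited p under 0.05 in rSBP15 and 13.2% in 156OE. In all 742 genes the recovered spreads were small enough that the libraries of rSBP15, 156OE and MT cannot overlap. Libraries of rSBP15 and MT cannot overlap in 62.3% of the genes of that table, those of 156OE and MT in 37.9%, and those of rSBP15 and 156OE in 48.4% of the tested genes. A p under 0.05 in these tables goes with such separation, so nothing is read from it.

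The opposed genes that were lower in rSBP15 were more numerous and had larger median sizes in both lines. Their median log fold change was -0.35 in rSBP15 and 0.29 in 156OE. In those that were higher in rSBP15 it was 0.20 in rSBP15 and -0.12 in 156OE. The median distance between the lines was 0.657 for the genes lower in rSBP15 and 0.343 for those higher in rSBP15. A size of at least 0.1 in both tables was reached by 378 of the 441 and by 155 of the 301, and a size of at least 0.5 in both tables by 44 and by 16. The excess of genes lower in rSBP15 also held at a deposited p under 0.01 in both tables (117 lower and 47 higher). Among the 2909 genes with opposite signs whose libraries cannot overlap, whatever their p, 1549 were lower and 1360 higher. The first set lies within the 742 opposed genes and the second contains them, so neither is separate support. At a Benjamini-Hochberg adjusted p under 0.05 in both tables, 2 genes were higher and 0 lower in rSBP15.

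The rSBP15 value was the farther one from MT in 500 of the 742 opposed genes (67.4%), close to the 66.5% of all tested genes, and the 156OE value in 242. The 156OE value was the farther one in 172 of the 441 genes lower in rSBP15, and in 70 of the 301 genes higher in rSBP15. These counts were not tested against each other.

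**Figure D2:**
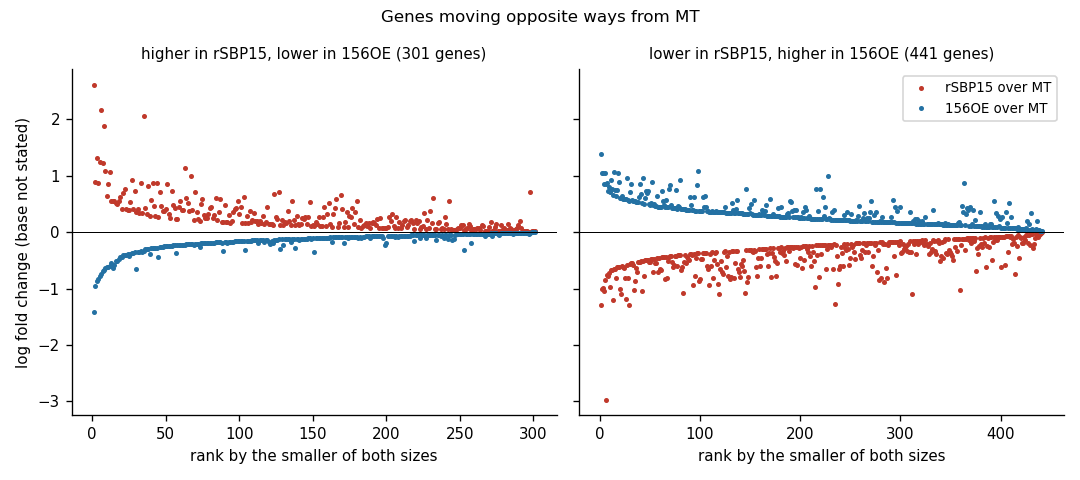
Deposited log fold changes over MT of the 742 opposed genes, in rSBP15 (red) and 156OE (blue), ranked from left to right by the smaller of the sizes in both tables; the vertical axis is in log units of unstated base. The left panel holds the 301 genes higher in rSBP15 and the right panel the 441 lower in rSBP15. The median distance between the lines is 0.343 in the left panel and 0.657 in the right one.

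Of the 742 opposed genes, 714 (96.2%) also had an adjusted p under 0.05 in the direct test, 278 of them higher and 436 lower in rSBP15. The direct test uses the same log fold changes as the definition and is no independent support. Just inside the definition, a gene with deposited log fold changes of -0.82 in rSBP15 and 0.18 in 156OE had p-values of 0.00155 and 0.04996 in those tables. Just outside it, a gene at -0.31 in rSBP15 and 0.14 in 156OE had p-values of 0.00922 and 0.0501.

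In 3 opposed genes the size exceeded 1 log unit in both lines. Solyc03g006360.3 and Solyc01g107370.3, described above, were among them. Solyc01g107370.3 only just met the definition, with deposited p-values of 0.0494 in rSBP15 and 0.0498 in 156OE. The remaining one was Solyc10g086150.2, lower in rSBP15, with deposited log fold changes of -1.01 in rSBP15 and 1.05 in 156OE and recovered standard errors of 0.0310 and 0.163. The difference of -2.06 had a moderated standard error of 0.121 and adjusted p = 0.00903 (0.0991 with the 4 libraries alone). On the side that was higher in rSBP15, the second gene by the smaller size was Solyc01g010185.1. Its deposited log fold changes were 0.88 in rSBP15 and -0.95 in 156OE, with standard errors of 0.148 and 0.204. The difference was 1.83, with an adjusted p of 0.0169 (0.105 with the 4 libraries alone).

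After Benjamini-Hochberg adjustment over the genes of each table not listed at 0, 2 opposed genes stayed under 0.05 in both, against backgrounds of 5.58% of genes in rSBP15 and 0.0201% in 156OE. Both were higher in rSBP15 and lower in 156OE. They are named because so few passed, after their values were seen. Solyc04g025560.4 had deposited log fold changes of 0.87 in rSBP15 and -0.29 in 156OE, and Benjamini-Hochberg adjustment of the deposited p-values gave 0.0237 and 0.0394. Its recovered standard errors were 0.0189 in rSBP15 and 0.0016 in 156OE. The medians over the 24190 genes compared for spread were 0.0548 and 0.0652. Its call in 156OE thus also rests on replicate libraries that lay very close together. With genes listed at 0 kept in the adjustment, a setting added after the data were seen, 0 opposed genes passed in both tables, and both of these genes stood at 0.0318 in rSBP15 and 0.0539 in 156OE. The direct difference of Solyc04g025560.4 was 1.16, with a moderated standard error of 0.0189. Its adjusted p in the limma fit of 6 libraries was 0.00429, the lowest value in that fit, which other genes shared. Solyc08g045640.3 moved little, with deposited log fold changes of 0.033 in rSBP15 and -0.20 in 156OE. Its recovered standard errors were 0.000358 and 0.000872, so that this call rests on replicate libraries that lay very close together. With the moderation refitted without genes listed at 0, 823 genes had a p under 0.05 in both tables with opposite signs, 282 higher and 541 lower in rSBP15.

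**Figure D3:**
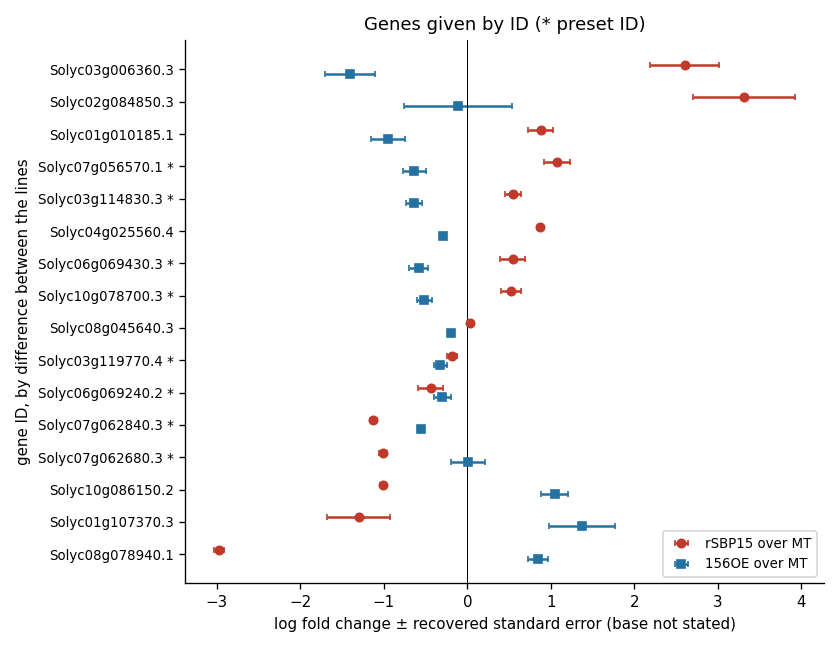
Deposited log fold change over MT with its recovered standard error (bars) for genes given by ID in the text, in rSBP15 (red circles) and 156OE (blue squares), in log units of unstated base. Asterisks mark preset IDs, and genes are ordered by the difference between the lines, from Solyc03g006360.3 at 4.01 to Solyc08g078940.1 at -3.82.

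A set of 44 gene IDs had been listed from general knowledge of tomato shoot development, with part of the results known, and was looked up whatever its result. Without gene names, the transgene's own gene and targets of miR156 could not be set apart in this list. Differences in such genes may follow directly from the transgenes, so the shares below are descriptions. One of the 44 IDs was listed at 0 in both tables, which left 43. In the limma fit of 6 libraries 14 of the 43 (32.6%) had an adjusted p under 0.05, 12 higher and 2 lower in rSBP15, beside 14.4%, 7.39% and 7.04% of all tested genes. Higher here means higher than in the other line, and not always a rise over MT. Some of the 12 lay below MT in both lines and had fallen less in rSBP15. The rest of the 12 lay above MT in rSBP15 and below it in the other line. The median size of the differences of all 43 was 0.25, against 0.114 over all tested genes. The differences of the 43 ranged from -1.02 to 1.88 with a median of 0.14. With the 4 libraries alone 0 of the 43 passed in limma, where 0 of all tested genes passed. An unadjusted limma p under 0.05 was reached there by 17 of the 43, beside 5569 of all 25657 tested genes. In the fit of 6 libraries it was reached by 22 of the 43, beside 8203 of all 25657.

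Of the preset IDs, 4 were opposed, all of them higher in rSBP15 and lower in 156OE, beside 2.89% of all tested genes that were opposed and 1.17% opposed in that direction. The first, Solyc10g078700.3, was at 0.52 in rSBP15 and -0.51 in 156OE in the authors' deposited tables. The steepest opposition of the 4 was that of Solyc07g056570.1, with deposited log fold changes of 1.08 in rSBP15 and -0.63 in 156OE and standard errors of 0.158 and 0.142. Its difference was 1.71, with a moderated standard error of 0.154 and adjusted p = 0.0151 (0.105 with the 4 libraries alone). Solyc03g114830.3 and Solyc06g069430.3 moved by similar sizes. The values of Solyc03g114830.3 were 0.55 in rSBP15 and -0.64 in 156OE, with a difference of 1.19 and an adjusted p of 0.0136. The values of Solyc06g069430.3 were 0.54 in rSBP15 and -0.58 in 156OE, with a difference of 1.13 and an adjusted p of 0.0234. Apart from Solyc10g078700.3, these IDs were picked out of the preset list after their values were seen.

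The 2 called preset IDs on the lower side in rSBP15 are both named here, after their values were seen, and neither was opposed. Solyc07g062680.3 was at -1.01 in rSBP15 and 0.010 in 156OE in the authors' deposited tables (standard errors 0.0483 and 0.208). Its difference was -1.02, with an adjusted p of 0.0333 (0.137 with the 4 libraries alone). Solyc07g062840.3 was below MT in both lines, at -1.13 in rSBP15 and -0.55 in 156OE, and the further fall in rSBP15 came to a difference of -0.57 with an adjusted p of 0.0103 (0.0991 with the 4 libraries alone). The remaining IDs among the first 4 of the list did not pass. Solyc06g069240.2 differed by -0.14 with an adjusted p of 0.564, and Solyc03g119770.4 by 0.14 with an adjusted p of 0.266.

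**Figure D4:**
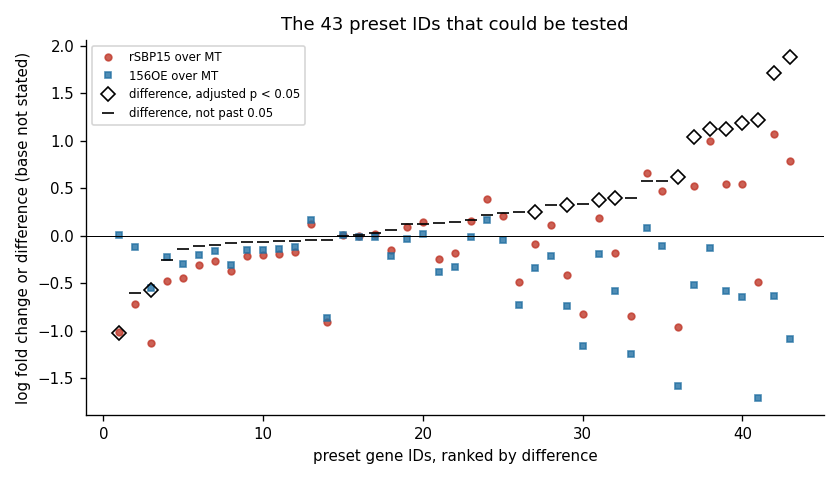
The 43 preset IDs that could be tested, ranked by the difference between the lines, with the deposited log fold changes over MT in rSBP15 (red circles) and 156OE (blue squares) and the difference itself (open diamonds for an adjusted p under 0.05 in the 6-library fit, dashes otherwise), in log units of unstated base. The diamonds are 12 positive and 2 negative differences between -1.02 and 1.88.

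Some genes stood above a common level in 1 line only. A gene listed at a log fold change of 0 in the 156OE table and not in the rSBP15 table was taken to have the same value in the 156OE and MT libraries. Of the 25657 tested genes, 737 were of this kind, all above that level in rSBP15, and 328 of the reverse kind, all above it in 156OE. For these genes the spread belongs to 1 line, so that the values of its 2 libraries can be worked out, though not which replicate is which. In rSBP15, 528 of the 737 genes were above the level in 1 of the 2 libraries and 209 in both. A library counted as above the level when its value exceeded 1% of the line's mean. In 156OE the counts were 289 and 39. The values were mostly small, with a median log fold change of 0.0157 over the 209 genes and 0.0163 over the 39. The largest log fold changes, 2.29 in rSBP15 and 0.949 in 156OE, belonged to genes above the level in 1 of the 2 libraries.

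These genes were chosen on the values described, so no test is given for them. In Solyc01g056657.1 the libraries stood at 0.772 and 0.724 log units in rSBP15, with 156OE and MT at the common level. Solyc06g066420.4 had library values of 0.700 and 0.424 in rSBP15. Both lay far above the median of the 209 genes. On the 156OE side Solyc11g012990.1 had library values of 0.104 and 0.0615, and Solyc05g044590.1 of 0.0724 and 0.0627.

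**Figure D5:**
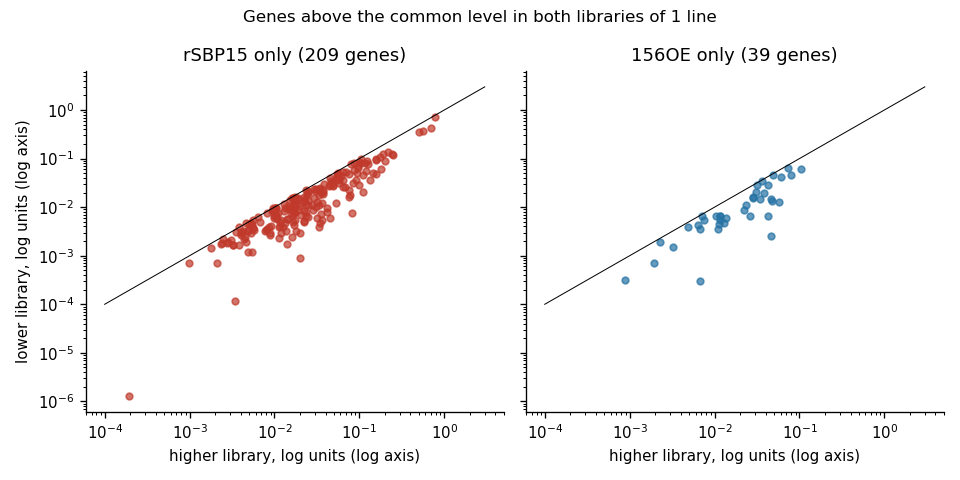
Library values of the genes above the common level in both libraries of 1 line, for rSBP15 (209 genes, left) and 156OE (39 genes, right), with the higher library on the horizontal axis and the lower one on the vertical axis, both on logarithmic axes in the log units of the deposited tables. The line marks equal values, and points near it are genes whose replicate libraries lay close together.

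By the convention of tomato gene IDs, the number before the letter g is the chromosome. Called genes were spread evenly by this number. On chromosomes 1 to 12 the share with an adjusted p under 0.05 in the limma fit of 6 libraries lay between 13.6% and 15.2%, around the 14.4% of all tested genes. The share of called genes that were higher in rSBP15 ran from 47.3% on chromosome 6 to 58.2% on chromosome 5. Opposed genes made up between 2.52% and 3.39% of the tested genes of each chromosome. On chromosome 5 more of them were higher (31) than lower (25) in rSBP15, while on each of the other 11 chromosomes more were lower. IDs numbered 00, which lie on no assembled chromosome, held 1 called gene among 262.

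Neighbouring IDs were called together little more often than IDs in general. After a called gene the next tested ID of the same chromosome was called in 15.6% of 3701 cases, beside 14.4% of all tested genes. When both were called, which happened in 579 pairs, the direction was shared in 353 (61.0%). Over all called genes 51.2% were higher in rSBP15. Adjacent opposed genes formed 21 of the 25644 neighbouring pairs, 14 of them with the same direction. Of single tested genes, 2.89% were opposed. Neither the shared directions nor the number of opposed pairs was tested against a random order. Whether neighbours share reads was not tested.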

How the data were processed

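Libraries were made from poly(A) RNA with a strand-specific Illumina kit, per the labels' protocols. HISAT2 and StringTie are named in the submitters' processing notes, without versions. The genome build, annotation and filters are not given in the sources used here. The authors deposited 2 tables with a log fold change (per the file headers, logFC) and a p-value (per the file headers, P.Value) for each gene; neither the expression unit nor the test is stated.

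The spread of each gene was recovered from the deposited p-values on the assumption of an unpaired limma fit of 2 libraries against 2. Genes raised in 1 library lie, within 1e-06 in p, on a curve fixed by limma's prior, which was 0.36 degrees of freedom and 1.92e-06 for rSBP15 and 0.347 and 1.94e-06 for 156OE. Limma 3.58.1 (R 4.3.3), run on the recovered variances of all rows, returned the same priors. The standard errors given for deposited log fold changes are the recovered residual SDs. Both tables were taken to share the MT libraries, since in 402 genes they list the same log fold change, always below 0. The difference of the log fold changes was tested with limma's moderated test on 3 residual degrees of freedom, at the largest variance of 6 libraries that the unknown MT spread allows, over the 25657 genes not at 0 in both tables, with Benjamini-Hochberg adjustment at 0.05. Libraries were said not to overlap where the difference exceeded the square root of 2 times the SD. The scripts were also run on simulated libraries with changes set in rSBP15 alone, which cannot bear on the counts of opposed genes. The outcome of that run is not given here. Nothing states that replicates came from separate plantings, so p-values may measure technical spread. Members, lists and the main test were chosen with earlier results of these data known.

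Genes were named by rule: the first 2 in each direction among opposed genes that passed the direct test, ranked by the smaller size; the 2 differences of largest size in each direction among called genes whose libraries cannot overlap; the 2 largest log fold changes with a deposited p under 0.05 among genes seen in 1 line; and the first 4 preset IDs. Other named genes are marked in the text as chosen after their values were seen.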

Additional observations from a re-analysis of the deposited data

How the results depend on the processing

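The number of genes differing between rSBP15 and 156OE, 3702 as reported, was 5961 in the fit of 6 libraries at the smallest residual variance, 0 with the 4 libraries alone at the largest variance, 1994 with the 4 libraries at the mean recovered variance, 2009 with genes listed at 0 kept, 1096 with no moderation and 360 at an adjusted p of 0.01. It was 3681 with the median difference of 0.00163 removed. The share higher in rSBP15 was 51.2% as reported, 52.6% at the smallest variance, 46.7% with the 4 libraries at the mean variance, 51.1% with genes listed at 0 kept, 48.5% with no moderation, 50.6% with the median removed and 30.6% at 0.01; the cause was not tested. The number of opposed genes, 742 as reported, was 164 at a p under 0.01 in both tables, 2 at an adjusted p under 0.05 in both, 2909 for libraries that cannot overlap, 823 with the moderation refitted and 60 with a size of at least 0.5 in both, fewer where the rule is stricter by construction. It was 0 when the adjustment in both tables took in all rows and 714 when the direct call was also required, settings added after the data were seen. Of the 16 genes given by ID with a test, 14 lost their call with the 4 libraries at the largest variance, 3 at the mean recovered variance, 4 with genes listed at 0 kept and 8 with no moderation; 0 gained a call and 0 reversed under the settings run on them. No paired analysis was possible because the files hold summaries per comparison and nothing for single libraries. Other normalizations, filters on low values, pseudocounts and leaving out replicates were likewise not run, and the limits set by depth are unknown.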
